A study of Mus musculus with 6 samples.

Results

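The genes described here are 10 feedback inhibitors and surface modulators of Wnt signalling, measured by RNA sequencing in endothelial cells of the embryonic mouse brain. They are Apcdd1, Tnfrsf19, Tpbg, Nkd1, Nkd2, Znrf3, Rnf43, Sfrp1, Dkk3 and Notum, picked by symbol from 22958 gene entries. All 10 symbols were found, each in 1 entry. The choice was made with the difference between the groups in view, so that difference is described for them below and is not tested. Of the 10 genes, 8 had enough reads to enter the fit across 12661 genes, and each of these had at least 10 reads in every library. Rnf43 and Notum did not pass the filter on low counts.

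CD31+ (PECAM1+) brain endothelial cells had been sorted from mouse embryos of the strain C57BL/6 x 129/Sv at E11.5 (E for embryonic day). Mothers of both groups had received tamoxifen at E9.5. The 3 control libraries carry the label Cdhrs5CreERT2:R26Axin1IL-/- and the 3 Axin1 libraries the label Cdhrs5CreERT2:R26Axin1IL+/-, so the Cre driver was shared and the Axin1 allele at R26 was not. The labels describe the libraries as biological replicates and name no litters, pools or sex, so the spread given below is that between these libraries. Nothing in the labels tells how many endothelial cells had recombined the allele.

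In canonical Wnt signalling a Wnt ligand binds a Frizzled receptor with an Lrp co-receptor, beta-catenin escapes degradation, and TCF/LEF factors switch on target genes. Several of those targets encode proteins that damp the pathway again, at the ligand, at the receptor or inside the cell, which makes their transcripts usual readouts of pathway activity. Axin1 holds together the destruction complex that targets beta-catenin. In the developing brain, Wnt ligands from neural cells act on endothelium and are known for their part in vessel ingrowth and in forming the blood-brain barrier.

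Libraries held 10772492 to 14234409 reads assigned to genes. Levels of 1 gene across libraries are given as CPM (read counts scaled to a common library size, TMM-normalised), and levels of different genes are compared as RPKM, which also divides by transcript length. Axin1 itself ranged from 17.6 to 25 CPM among controls and from 62.2 to 79.8 CPM among Axin1 libraries, in the direction of the labels (log2 fold change 1.72, edgeR adjusted p 0.0103). Reads of the transgene and of the endogenous gene are not distinguished in these counts. All 12 endothelial markers were detected in every library, with a summed level of 7496 to 7943 CPM among controls and 7855 to 8745 CPM among Axin1 libraries. Single markers differed more than the sum, with log2 fold changes from -0.33 to 1.29. At an unadjusted p under 0.05 in edgeR there were 3 of the 12, beside 17.2% of all tested genes. Cdh5 held 432, 502 and 846 CPM in the controls and 981, 945 and 924 CPM in the Axin1 libraries, while Pecam1 and Kdr had overlapping groups. The other marker sums were, for 12 neural markers, 290 to 476 CPM among controls and 344 to 369 CPM among Axin1 libraries, and for 15 pericyte and mesenchyme markers 77.4 to 156 and 130 to 196 CPM. Macrophage markers (12 genes) summed to 475 to 907 and 270 to 2842 CPM, erythroid markers (9 genes) to 740 to 3080 and 262 to 2722 CPM, and megakaryocyte and platelet markers (10 genes) to 1538 to 1657 and 734 to 2546 CPM. Markers with no read in at least 1 library included Sox2, Sox1, Hes5, Twist1 and Klf1. The part of such other cells in the differences described below was not tested. In sorted bulk cells, fewer cells expressing a gene and less RNA of it per cell cannot be told apart.

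Transcripts of 5 genes were lower in the Axin1 libraries by 2.86-fold to 7.06-fold, and their groups did not overlap. With Znrf3, 6 of the 8 measured genes had groups that did not overlap, with the Axin1 libraries lower, against 12.4% of all tested genes. The 5 genes were Apcdd1, Nkd1, Tpbg, Tnfrsf19 and Dkk3. Znrf3 differed by only 1.34-fold, and Nkd2 and Sfrp1 had overlapping groups. Rnf43 and Notum were close to the detection limit in both groups. In edgeR's quasi-likelihood fit over all genes (Benjamini-Hochberg adjusted p under 0.05), 5 of the 8 measured genes were called lower, against 0.49% of all tested genes, and 0 were called higher, against 0.355%. No positive difference among the 8 genes reached an unadjusted p under 0.05 in edgeR, and DESeq2 called 0 of them higher too, against 3.67% of the genes it tested. Since the contrast guided the choice of genes, these counts carry no weight as evidence. The median log2 fold change was -1.53 over the 8 genes and 0.02 over all tested genes.

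**Figure D1:**
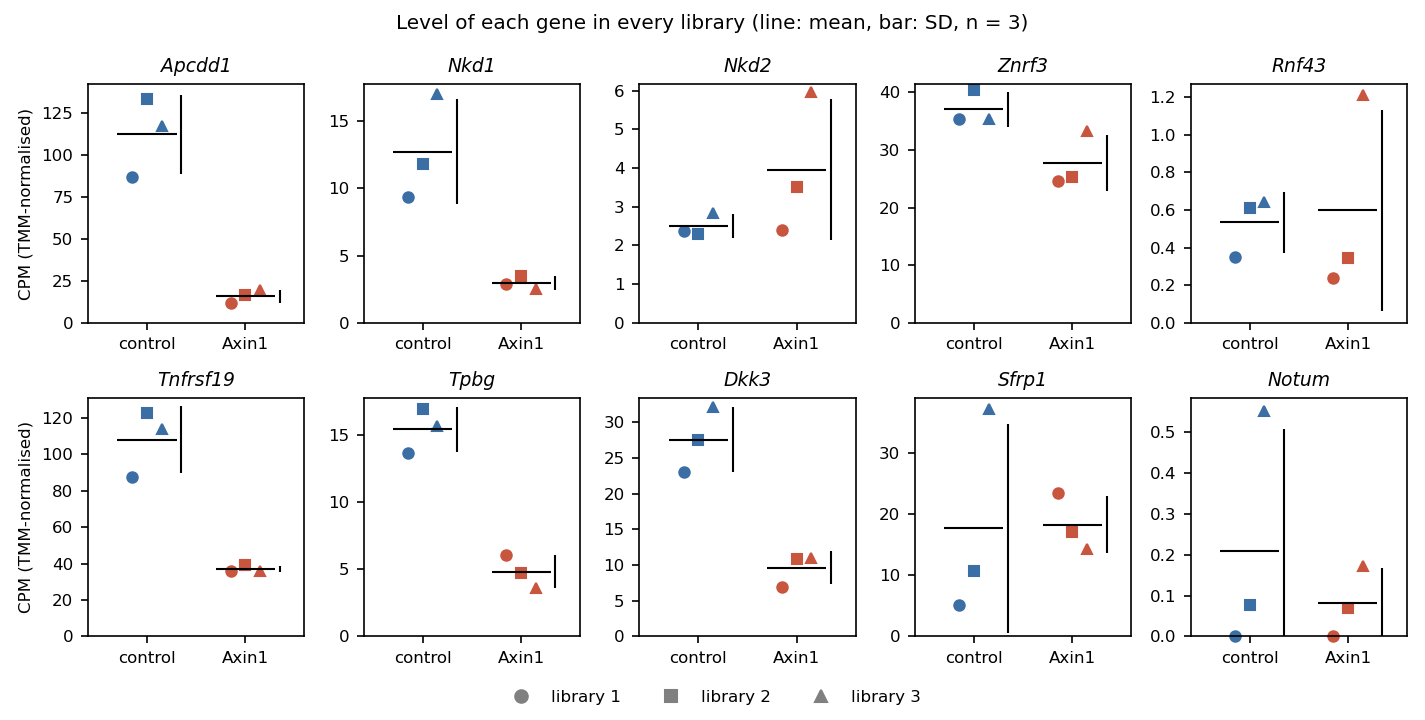
Level of each of the 10 genes in every library, in TMM-normalised CPM on axes that start at 0 and differ between panels. Blue symbols are controls, red symbols Axin1 libraries, horizontal lines group means and vertical bars SDs (n = 3, not drawn below 0). Apcdd1, Nkd1, Tnfrsf19, Tpbg and Dkk3 separate into a high control group and a low Axin1 group, and of the 8 genes in the fit Sfrp1 has the widest control spread relative to its mean.

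Apcdd1 (NM_133237) encodes a membrane-anchored glycoprotein that binds Wnt and its Lrp co-receptor and inhibits signalling at the cell surface. Controls 1, 2 and 3 held 86.6, 133 and 117 CPM, and Axin1 libraries 1, 2 and 3 held 11.7, 16.6 and 19.4 CPM. The lowest control was 4.47 times the highest Axin1 library, the widest gap between the groups among the 8 genes. The log2 fold change was -2.82 (SE 0.23, 95% confidence interval -3.35 to -2.29). Only 6 of the 12661 tested genes had a lower log2 fold change. The relative spread was similar in both groups, with a coefficient of variation of 21.0% in the controls and 24.6% in the Axin1 libraries.

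Tnfrsf19 (NM_001164155 and NM_013869), also called Troy, encodes a TNF receptor family member that is a known beta-catenin target and modulates Wnt signalling at the membrane. Levels of 87.3, 123 and 114 CPM in the controls stood beside 36.1, 39.1 and 36.0 CPM in the Axin1 libraries. The Axin1 libraries lay within 1.09-fold of each other, the narrowest spread of any of the 8 genes in that group. The log2 fold change was -1.54 (SE 0.15, 95% confidence interval -1.88 to -1.20), about 2.91-fold.

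Tpbg (NM_011627 and NM_001164792), the trophoblast glycoprotein, is a leucine-rich membrane protein that inhibits canonical Wnt signalling through the Lrp co-receptor. The controls held 13.7, 16.9 and 15.7 CPM and the Axin1 libraries 6.07, 4.75 and 3.63 CPM, with no overlap. The log2 fold change was -1.68 (SE 0.25, 95% confidence interval -2.25 to -1.10). In the GENCODE annotation of another build, its exons overlap those of the non-coding gene 9330154J02Rik on the opposite strand. The strand setting of the counts is not given in the sources used here, so reads of that gene cannot be told apart from those of Tpbg.

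Promoter sequences from RefSeq (GRCm38.p6, a later build than that of the counts) covered 5 of the 10 genes in 8 windows, each reaching from 250 bases before a transcript start to 50 bases after it. They were searched on both strands for the TCF/LEF core words CTTTGAA or CTTTGAT or CTTTGTA or CTTTGTT. The words were found in 1 of the 8 windows, at Tnfrsf19, and in 16.9% of all 32851 windows of the table. The match was CTTTGAT on the strand opposite to the printed one, at bases 49 to 55 of the window, with 195 bases between it and the start. This word alone occurred in 3.73% of all windows. The 250 bases before the start are shown for 3 genes that were lower in the Axin1 libraries, in lower case with the matched word in capitals. For Tnfrsf19, which has 2 starts in the table, the window with the word is chr14:61037988-61038237 and the window of the more upstream start is chr14:61046856-61047105, both on the minus strand. For Nkd1 the window is chr8:88527383-88527632 and for the first of the 2 Tpbg starts chr9:85842130-85842379, both on the plus strand. The other Tpbg window before its start, chr9:85842602-85842851, is not shown.
Tnfrsf19, start with the word: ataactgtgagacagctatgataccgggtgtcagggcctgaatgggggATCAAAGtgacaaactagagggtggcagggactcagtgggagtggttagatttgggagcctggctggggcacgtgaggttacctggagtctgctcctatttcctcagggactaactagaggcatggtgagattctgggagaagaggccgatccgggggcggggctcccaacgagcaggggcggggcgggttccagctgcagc
Tnfrsf19, upstream start: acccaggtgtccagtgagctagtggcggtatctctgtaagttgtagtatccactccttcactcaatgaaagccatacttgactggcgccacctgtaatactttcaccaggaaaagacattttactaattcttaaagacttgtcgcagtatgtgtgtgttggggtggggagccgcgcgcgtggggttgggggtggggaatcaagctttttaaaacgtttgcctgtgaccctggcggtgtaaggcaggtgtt
Nkd1: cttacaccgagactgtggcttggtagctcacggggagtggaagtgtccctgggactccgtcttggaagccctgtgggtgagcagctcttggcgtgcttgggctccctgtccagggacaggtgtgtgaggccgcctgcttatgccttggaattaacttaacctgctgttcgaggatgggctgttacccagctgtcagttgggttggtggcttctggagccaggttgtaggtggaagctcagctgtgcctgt
Tpbg, first start: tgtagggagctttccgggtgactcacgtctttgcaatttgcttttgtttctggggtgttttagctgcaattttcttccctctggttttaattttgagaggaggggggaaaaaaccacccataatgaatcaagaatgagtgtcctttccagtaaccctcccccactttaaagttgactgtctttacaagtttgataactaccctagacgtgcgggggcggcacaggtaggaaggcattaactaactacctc
The Nkd1 and Tpbg windows hold none of the 4 words, nor do those of Nkd2 and Rnf43. A match describes letters in a short window and does not show binding, and a window without the words says nothing about sites elsewhere. The GC content was 60.7% in the Tnfrsf19 window with the word and 51.0% in that of the upstream start, 58.3% at Nkd1, and 46.0% and 65.7% in the Tpbg windows, beside a median of 52.7% over all windows.

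Nkd1 and Nkd2 encode the Naked cuticle proteins, which bind Dishevelled in the cytoplasm and antagonise Wnt signalling. Nkd1 (NM_027280 and NM_001163660), the family member known as a feedback target, held 9.36, 11.8 and 17.0 CPM among controls and 2.88, 3.51 and 2.51 CPM among Axin1 libraries. The lowest control was 2.67 times the highest Axin1 library, on 29 to 185 reads per library. Its log2 fold change was -2.09 (SE 0.31, 95% confidence interval -2.79 to -1.40).

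Nkd2 (NM_028186) went the other way in its mean but not beyond its spread. The controls held 2.36, 2.30 and 2.85 CPM and the Axin1 libraries 2.40, 3.51 and 5.96 CPM, on 27 to 69 reads per library. Axin1 library 1 lay among the controls and Axin1 library 3 lay highest. The log2 fold change was 0.66 (95% confidence interval -0.30 to 1.61). Per length, the ratio of Nkd1 to Nkd2 was 3.22, 3.83 and 4.53 in controls 1, 2 and 3 and 0.992, 0.813 and 0.314 in Axin1 libraries 1, 2 and 3. Nkd1 was thus the more abundant paralog in all 3 controls and in 0 of the 3 Axin1 libraries, and in Axin1 library 1 the levels were nearly equal. Over the Axin1 libraries the macrophage, erythroid, and megakaryocyte and platelet marker sums rose in the order of Nkd2, and the other marker sums did not. Among controls the megakaryocyte and platelet sum followed Nkd2, and the macrophage and erythroid sums did not. The part of such cells in the Nkd2 levels was not tested.

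**Figure D2:**
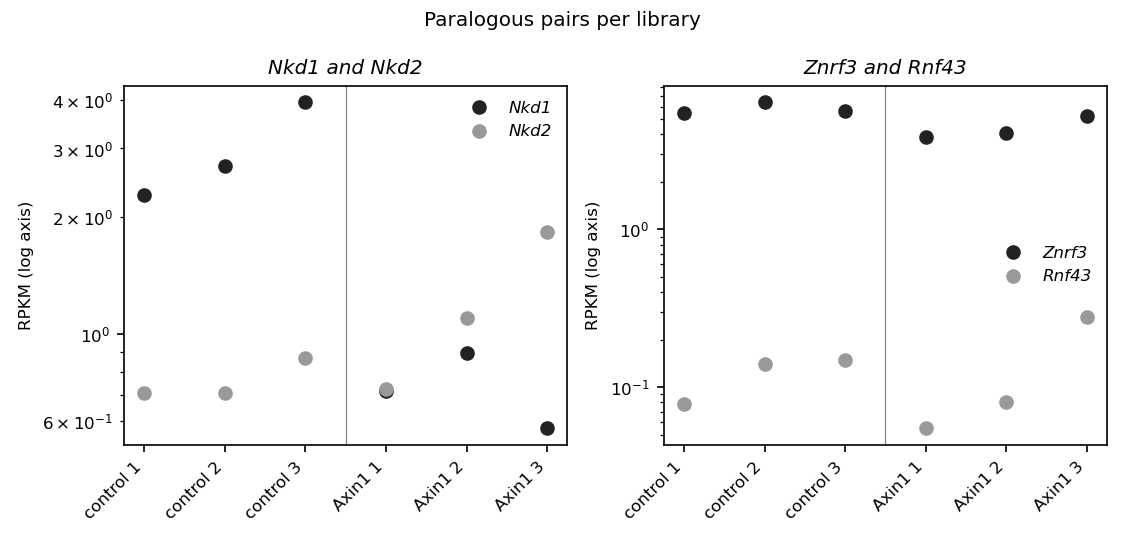
Deposited RPKM of the paralogs Nkd1 and Nkd2 (left) and Znrf3 and Rnf43 (right) in each library, on log axes, 1 point per gene and library. Nkd1 lies above Nkd2 in the 3 controls and below it in the 3 Axin1 libraries, while Znrf3 lies far above Rnf43 in all 6.

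Znrf3 and Rnf43 encode transmembrane ubiquitin ligases that remove Frizzled receptors from the cell surface and are held in check by R-spondins. Znrf3 (NM_001080924) held 35.4, 40.5 and 35.3 CPM among controls and 24.6, 25.3 and 33.4 CPM among Axin1 libraries. The groups did not overlap, as for 12.4% of all tested genes in this direction, but the lowest control was only 1.06 times the highest Axin1 library. The log2 fold change was -0.42 (SE 0.17, 95% confidence interval -0.80 to -0.04), and Znrf3 was not among the genes called over all genes. Axin1 library 3 was the library nearest to the controls.

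Rnf43 (NM_172448) had 4, 8 and 7 reads in the controls and 3, 5 and 14 reads in the Axin1 libraries. The exact Poisson 95% interval was 1.09 to 10.2 reads for the control with 4 and 7.65 to 23.5 for the Axin1 library with 14. In total the controls held 19 reads and the Axin1 libraries 22, and a difference between the groups was not tested. Znrf3 exceeded Rnf43 by 37.6-fold to 69.3-fold per length in the controls and by 18.9-fold to 70.3-fold in the Axin1 libraries. Znrf3 was therefore the main transcript of the pair in all 6 libraries.

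Among the secreted modulators, Dkk3 (NM_015814) encodes a divergent Dickkopf glycoprotein whose effect on Wnt signalling varies with the cell type. The controls had 23.0, 27.5 and 32.2 CPM and the Axin1 libraries 6.95, 10.9 and 11.1 CPM. The groups did not overlap, and the log2 fold change was -1.52 (SE 0.24, 95% confidence interval -2.05 to -0.98), about 2.86-fold.

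Sfrp1 (NM_013834) encodes a secreted Frizzled-related protein that binds Wnt ligands. Controls 1, 2 and 3 had 5.16, 10.7 and 37.1 CPM, and Axin1 libraries 1, 2 and 3 had 23.4, 17.1 and 14.3 CPM. Control 3 was the highest of all 6 libraries and control 1 the lowest, a 7.19-fold range within the control group against 1.63-fold within the Axin1 group. The log2 fold change was 0.05 (95% confidence interval -1.70 to 1.81), and without control 3 it was 1.19. The gene's biological coefficient of variation in the fit was 59.0%, above that of 95.7% of tested genes. Control 3 also had the highest sum of the 12 neural markers, at 476 CPM, and control 1 the lowest, at 290 CPM. This order of the controls was not particular to neural markers. The pericyte and mesenchyme, erythroid and endothelial sums followed it too, and the macrophage and the megakaryocyte and platelet sums did not. Of the 12 neural markers 3 had no read in control 1, 1 had none in control 2 and 1 had none in Axin1 library 1. In the Axin1 libraries the neural sums, 351, 344 and 369 CPM, did not follow the order of Sfrp1, and the part of such cells in the Sfrp1 levels was not tested.

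Notum (NM_175263) encodes a secreted carboxylesterase that removes the lipid from Wnt proteins and is a feedback target in other tissues. It had 0, 1 and 6 reads in the controls and 0, 1 and 2 reads in the Axin1 libraries. Taking 3 reads as the limit that a count of 0 allows, this is 0.263 CPM in control 1 and 0.240 CPM in Axin1 library 1. The intervals and limits for these genes cover counting error only. Exons of Notum overlap antisense genes in the annotation, which the counts may not separate.

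**Figure D3:**
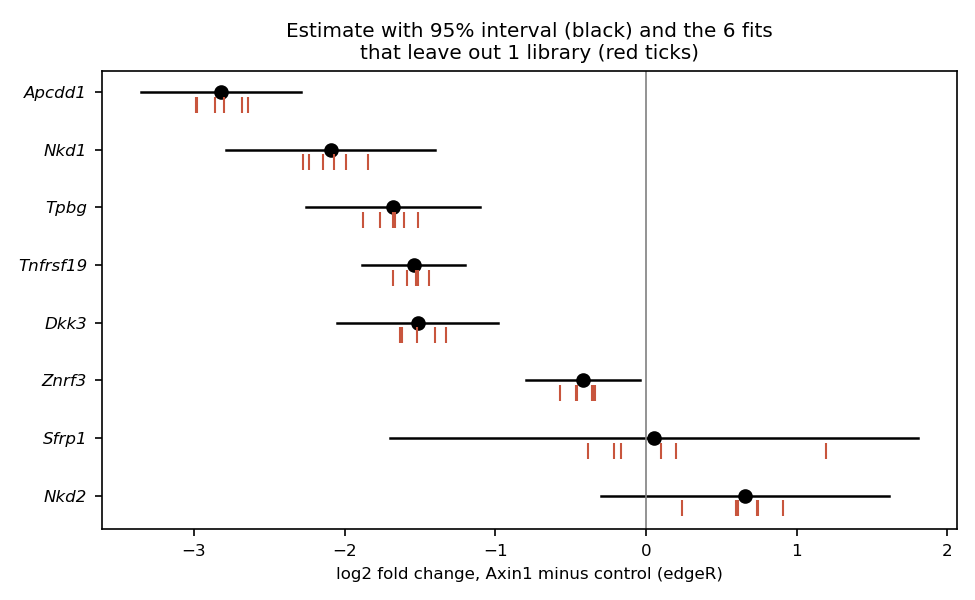
Log2 fold change, Axin1 minus control, of the 8 genes in the fit (edgeR), with 95% confidence intervals in black and the 6 fits that each leave out 1 library as red ticks. The estimates of Apcdd1, Nkd1, Tpbg, Tnfrsf19 and Dkk3 stay below -1 in all 6 of these fits, and that of Sfrp1 ranges from -0.39 to 1.19. The interval of Dkk3 reaches -0.98.

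In fits that left out 1 library, the log2 fold change ranged from -2.98 to -2.64 for Apcdd1, from -2.28 to -1.84 for Nkd1 and from -1.88 to -1.51 for Tpbg. For Tnfrsf19 it ranged from -1.68 to -1.44, for Dkk3 from -1.63 to -1.33, for Znrf3 from -0.57 to -0.34 and for Nkd2 from 0.24 to 0.91. Since the groups of the first 5 do not overlap, this constant direction is no sign of stability. The calls depended on single libraries: 0 of the genes were called without control 2 or without Axin1 library 2, where edgeR called 0 of all tested genes (1539 and 1733 at an unadjusted p under 0.05). Apcdd1 and Tnfrsf19 were called lower without control 1 (background 0.0691%) and without Axin1 library 3 (0.109%), these and Tpbg without Axin1 library 1 (0.124%), and all 5 without control 3 (1.41%).

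Per length, Apcdd1 was the most abundant of the 10 transcripts in every control, at 39.5 ± 8.80 RPKM (SD, n = 3). Tnfrsf19 followed with 24.6 ± 3.90, Dkk3 with 8.11 ± 1.49, Znrf3 with 5.80 ± 0.51, Tpbg with 4.47 ± 0.55, Sfrp1 with 4.04 ± 3.95, Nkd1 with 2.98 ± 0.86 and Nkd2 with 0.761 ± 0.094 RPKM. Rnf43 and Notum lay at 0.123 ± 0.039 and 0.104 ± 0.148 RPKM. Neighbours in this order overlapped between controls for Tpbg and Sfrp1, Sfrp1 and Nkd1, and Rnf43 and Notum, and not for the others.

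In the Axin1 libraries Tnfrsf19 came first with 8.28 ± 1.04 RPKM (SD, n = 3), above Apcdd1 with 5.64 ± 1.39 RPKM in all 3. Znrf3 with 4.39 ± 0.75 and Sfrp1 with 4.18 ± 1.05 RPKM came next, ahead of Dkk3 with 2.85 ± 0.70 RPKM. From Apcdd1 down to Dkk3 each overlapped its neighbour. The summed RPKM of the 10 genes was 70.1, 98.7 and 103 in the controls and 26.2, 30.3 and 30.0 in the Axin1 libraries, a mean of 90.5 against 28.9. Apcdd1 made up 40.6% to 47.7% of the sum in the controls and 15.7% to 22.7% in the Axin1 libraries, while Tnfrsf19 held 26.5% to 28.7% and 25.5% to 31.3%. These shares follow from the levels above and are no separate result.

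**Figure D4:**
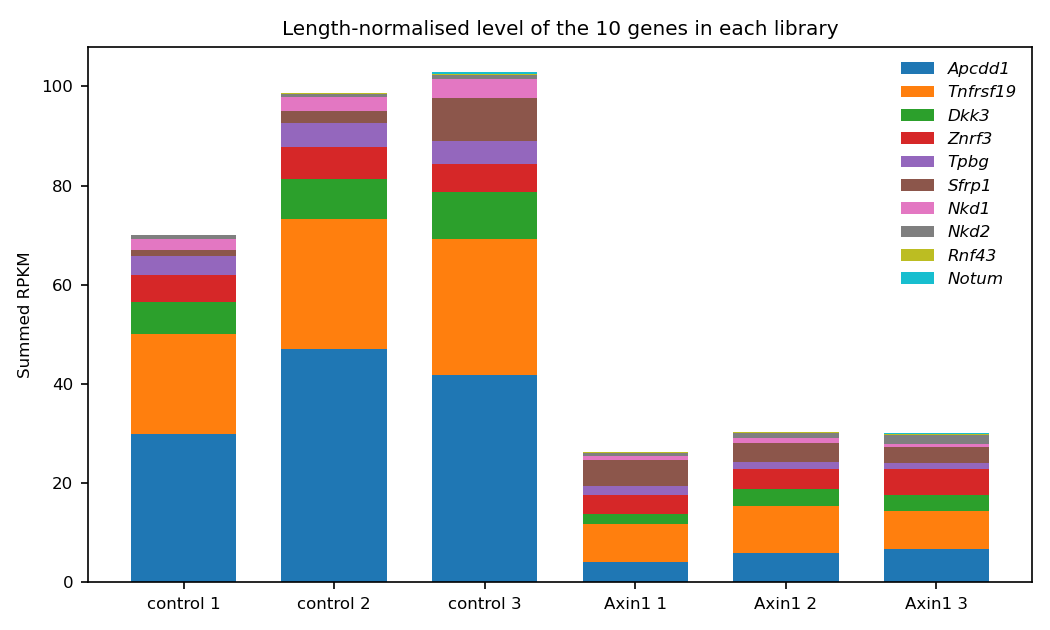
Deposited RPKM of the 10 genes stacked for each library (bars start at 0, colours mark genes in the order of their control means). The sum lies between 70.1 and 103 in the controls and between 26.2 and 30.3 in the Axin1 libraries, with Apcdd1 the largest segment in each control and Tnfrsf19 in each Axin1 library.

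The genes whose profile over the 6 libraries was most like each of these were taken by Pearson r of log2 CPM among 10132 other genes (10133 for Nkd2) with a mean of at least 5 CPM. The points share the difference between the groups, and with 6 libraries many genes reach a high r: 117 had an r of at least 0.95 with Apcdd1 and 34 with Sfrp1. For Apcdd1 the closest were Stra6 (r = 0.998), Tpd52l1 (0.998) and Aqp11 (0.997). For Tnfrsf19 they were Pcca (1.00), Tshz2 (0.996) and Slc19a3 (0.993), for Dkk3 Ptgfrn (0.999), Slc7a5 (0.997) and Pltp (0.993), and for Tpbg Sult5a1 (0.998), Slc35f2 (0.997) and Ptar1 (0.993). For Nkd1 they were Zdhhc3 (0.996), Bloc1s1 (0.995) and Odf2 (0.992), and for Znrf3 Slc22a23 (0.993), Mif4gd (0.990) and Dtwd2 (0.986). For Nkd2 they were Hmha1 (0.992), Trmt61b (0.987) and Arap1 (0.985), and for Sfrp1 Cep76 (0.993), Fastkd3 (0.987) and Stk39 (0.985).

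The rest of the pathway was taken from 6 lists by role that hold none of the 10 genes. Like those genes, the lists were chosen with earlier results of these data known. They held 108 genes in the files, of which 63 were tested, and 1 was called lower and 0 higher by edgeR over all genes, against 0.845% of all tested genes called in either direction. At an unadjusted p under 0.05 in edgeR there were 12 of the 63, beside 17.2% of all tested genes, the share against which the counts of this kind in each list below are to be read. DESeq2 called 5 of them (Ctnnbip1, Foxq1, Myc, Tcf7 and Tcf7l2, named here for that call), against 6.58% of the genes it tested. Ctnnbip1, Foxq1 and Tcf7 were lower in the Axin1 libraries (Tcf7: log2 fold change -1.57, edgeR adjusted p 0.0523). Myc and Tcf7l2 were higher (Myc: 0.74, edgeR adjusted p 0.191). The median log2 fold change of the 63 genes was -0.08, with 35 negative and 28 positive. Of all 12661 tested genes 6013 were negative, and the counts by direction here and below are to be read beside that.

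Among other secreted antagonists, 5 of 12 were tested and 0 were called by edgeR (0 at an unadjusted p under 0.05, 0 by DESeq2, median log2 fold change -0.05). Those with the smallest p were Frzb, a Frizzled-related protein (log2 fold change -0.39, edgeR adjusted p 0.757), Sost, the antagonist sclerostin (0.24, edgeR adjusted p 0.840), and Sfrp2 (-0.32, edgeR adjusted p 0.878). Without control 3 the direction turned for Sfrp2 (0.81) and for Sost (-0.012), so neither has a settled direction. The list's highest transcript, singled out after its values were seen, was Igfbp4, with 152 ± 16.2 CPM among controls and 148 ± 12.2 CPM among Axin1 libraries (SD, n = 3 each).

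Of 19 other surface and secreted modulators 11 were tested and 0 called by edgeR (1 at an unadjusted p under 0.05, 0 by DESeq2, median 0.01). Bambi, a pseudoreceptor that interacts with Wnt and TGF-beta signalling, went from 32.9 ± 4.13 to 24.7 ± 1.25 CPM (log2 fold change -0.41, edgeR adjusted p 0.225). Gpr124, the adhesion receptor needed for Wnt signalling in brain vessels, differed by -0.29 on the log2 scale (edgeR adjusted p 0.375). Lgr4, a receptor for R-spondins, had 0.39 (edgeR adjusted p 0.537).

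Of 18 intracellular inhibitors 14 were tested and 0 called by edgeR (3 at an unadjusted p under 0.05, 1 by DESeq2, median -0.19), with 11 negative and 3 positive log2 fold changes. Ctnnbip1, which blocks beta-catenin from TCF factors, went from 39.8 ± 1.18 to 28.0 ± 1.71 CPM (SD, n = 3 each), with a log2 fold change of -0.51 and an edgeR adjusted p of 0.113. Its DESeq2 adjusted p was 0.0441. Axin2, the feedback scaffold of the degradation complex, went from 6.62 ± 0.89 to 3.87 ± 0.31 CPM without overlap (edgeR adjusted p 0.198). Its log2 fold change, -0.77, had a 95% confidence interval of -1.39 to -0.16. Gsk3b, a kinase of that complex, differed by 0.45 on the log2 scale (edgeR adjusted p 0.152).

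Of 22 Wnt ligand and secretion genes 4 were tested and 0 called by edgeR (0 at an unadjusted p under 0.05, 0 by DESeq2, median -0.06). Ndp, the Frizzled ligand norrin, had means of 0.363 CPM among controls and 0.971 CPM among Axin1 libraries (log2 fold change 1.34, edgeR adjusted p 0.542). Its controls held 0, 0.997 and 0.0919 CPM, and without control 2 the log2 fold change was 4.15 (edgeR adjusted p 0.290). Porcn and Wls, which lipidate and export Wnt proteins, had log2 fold changes of -0.39 and -0.13 (edgeR adjusted p 0.677 and 0.678). Of 22 receptors and transducers 18 were tested and 0 called by edgeR (4 at an unadjusted p under 0.05, 1 by DESeq2, median 0.11). Those with the smallest p were the TCF factor Tcf7l2 (log2 fold change 0.57, edgeR adjusted p 0.0552, called in 4 of 18 alternative fits) and the receptors Fzd6 (-0.71, edgeR adjusted p 0.191, called in 1) and Fzd4 (0.56, edgeR adjusted p 0.238, called in 0).

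Of 15 other beta-catenin target genes 11 were tested and Foxq1, a forkhead transcription factor of brain endothelium, was called lower by edgeR (median of the list -0.17, 4 at an unadjusted p under 0.05, 3 called by DESeq2). Foxq1 fell from 11.3 ± 1.38 to 3.23 ± 1.26 CPM (SD, n = 3 each), with a log2 fold change of -1.81 (SE 0.32) and an edgeR adjusted p of 0.0492. It was called in 8 of 18 alternative fits, with adjusted p between 1.4e-04 and 0.213. Its edgeR adjusted p was 0.158 without control 1, 0.213 without control 2 and 0.0232 without control 3. Without Axin1 libraries 1, 2 and 3 it was 0.079, 0.175 and 0.0632. Log2 fold changes were negative for 7 of these 11 targets and positive for 4.

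**Figure D5:**
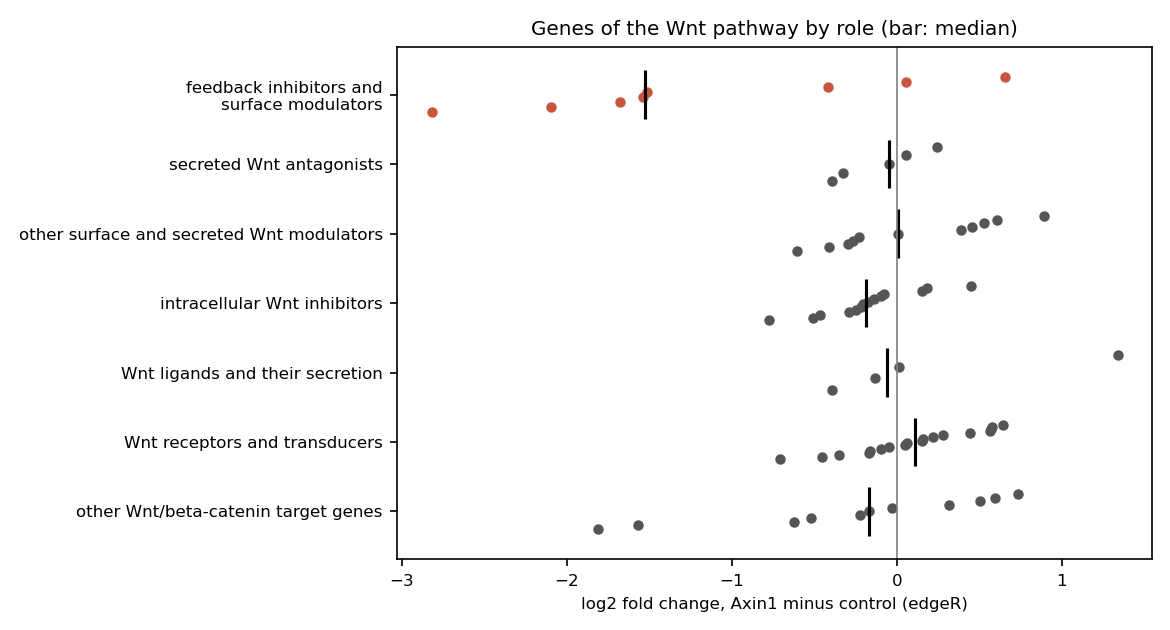
Log2 fold change, Axin1 minus control (edgeR), of the tested genes of each Wnt list, 1 point per gene with the list's median as a bar. The 8 feedback inhibitors and surface modulators (red), which were chosen with these values known, have a median of -1.53. The medians of the other lists, also chosen with earlier results of these data known, lie between -0.19 and 0.11.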

How the data were processed

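For every library the authors deposited raw read counts and length-scaled values (RPKM, called RPKM/FPKM per the file headers) of 22958 RefSeq entries. Alignment tool and genome build are Bowtie and mm9, per the submitters' processing notes. How reads were counted (program, strand setting, multiply matching reads) is not given in the sources used here. Per the labels, polyA RNA was made into cDNA with a SMARTer ultra-low-input kit. Counts were used as deposited for every fit. The RPKM values deposited by the authors served for levels between genes, and their ratio to counts followed 1 common factor per library, within 1%, for at least 83.2% of entries with reads in all libraries. For Nkd1 and Tnfrsf19, each with 2 RefSeq transcripts, the transcript length implied by that ratio varied between libraries by 9.12% and 11.8%, which moves their RPKM by as much.

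Genes were kept by filterByExpr (minimum count 10, minimum total 15) and fitted with edgeR 4.0.16 (R 4.3.3, robust quasi-likelihood, TMM, no covariates), with Benjamini-Hochberg adjustment over 12661 genes at 0.05. The SE is the size of the log2 fold change over the square root of F. Alternatives used DESeq2 1.42.0, limma 3.58.1, other scalings and filters, RPKM with pseudocounts of 1 and 0.1, blocks on replicate numbers, and each library left out. All pairs of libraries differed by more than counting error (chi-square over degrees of freedom 15.9 to 60.1). Genes and lists were chosen with earlier results of these data known. Named were the 10 genes, Axin1, genes called in each wider list or else the 3 with the smallest p, the 3 closest profiles per gene, and marker genes. Of the wider list genes, Draxin and Trabd2b were not matched.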

Additional observations from a re-analysis of the deposited data

How the results depend on the processing

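Over 18 alternative fits the 5 genes called lower kept a negative log2 fold change, and each was called in 10 to 16 of them. Their groups do not overlap and they were chosen with this contrast in view, so the constant direction is no sign of stability. DESeq2 called 720 genes over all (319 lower, 401 higher) and 5 genes of the wider lists. The fit without robust estimation called 51 genes and 0 of the wider lists, and library totals alone gave 0 of the wider lists. With no filter 197 genes (1.11% of those tested) and 3 of the wider lists were called. With limma on RPKM, 14 genes, 2 of the 10 (Apcdd1 and Tnfrsf19, lower, as 0.079% of genes) and 0 of the wider lists were called at either pseudocount, and at a pseudocount of 1 Nkd1 and Tpbg had log2 fold changes of -1.18 and -1.20. Leaving out 1 library gave 0 to 695 genes over all, 0 to 5 of the 10 and 0 to 3 of the wider lists. The highest of these counts came without control 3, where 5.37% of all tested genes were called. Controls 1 and 2 share a title number with Axin1 libraries 1 and 2, and control 3 and Axin1 library 3 have numbers of their own. With a replicate block on the title number in these 4 libraries, 1500 genes were called, 11.9% of those tested. They included 6 of the 10 lower (Znrf3 added, background 4.2%), 1 higher (Sfrp1, log2 fold change 1.39, background 7.67%) and 7 of the wider lists. The same 4 libraries without a block, a fit added after seeing the data, gave 512 genes. With the description number as a replicate block in all 6 libraries, 105 genes and 4 of the 10 (lower, background 0.427%) were called. Deviations correlated across genes at 0.23 and 0.15 for the 2 pairs that share a title number and at -0.02 for the pair that shares only a description number. Control 2 correlated best with Axin1 library 3 (0.17), and the labels do not say what either number marks, so the numbers were not taken to pair the samples. Sfrp2, not called in any fit, had log2 fold changes of 0.19 with limma-voom, 0.10 on RPKM with the pseudocount 0.1, 0.61 and 0.48 in the 4 libraries with and without the title block, 0.020 with the description block, and -0.82 to 0.81 with 1 library left out. For Sost the range with 1 library left out was -0.012 to 0.45. The cause of these changes was not tested. Scaling moved the median log2 fold change of all genes only between 0.01 and 0.03. Rnf43 and Notum are limited by depth.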

Other observations

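The transcript length implied by the ratio of counts to RPKM varied between libraries for the 3 genes with 2 RefSeq transcripts, Tnfrsf19, Nkd1 and Tpbg. It also varied, by 1.92%, for Nkd2, which has 1 RefSeq transcript. For Tnfrsf19 it was 4.22, 4.69 and 4.19 kb in controls 1, 2 and 3 and 4.67, 4.21 and 4.68 kb in Axin1 libraries 1, 2 and 3. For Nkd1 it was 4.0, 4.35 and 4.36 kb in the controls and 3.99, 4.0 and 4.34 kb in the Axin1 libraries. For Tpbg it was 3.44 kb in each control and 3.55, 3.44 and 3.43 kb in the Axin1 libraries. The values of Tnfrsf19 and Nkd1 did not separate the groups, and those of Tpbg stood apart in Axin1 library 1.

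Among R-spondins, the ligands that hold Znrf3 and Rnf43 in check, Rspo3 passed the filter on low counts, with 0.525, 0.230 and 2.57 CPM in the controls and 0.639, 2.96 and 2.51 CPM in the Axin1 libraries. Its groups overlapped (log2 fold change 0.89, edgeR adjusted p 0.661). Rspo1 had 0, 4 and 26 reads in the controls and 4, 9 and 9 in the Axin1 libraries, and Rspo2 had 0, 3 and 15 and then 9, 21 and 5. The secreted antagonist Wif1 had 2, 25 and 14 reads in the controls and 0, 4 and 4 in the Axin1 libraries, and Dkk1 had 0, 2 and 1 and then 0, 1 and 10. Rspo1, Rspo2, Wif1 and Dkk1 did not pass the filter on low counts, and these 5 genes were singled out after their values were seen.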
